A study of Mus musculus with 8 samples.

Results

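Broad stretches of low CpG methylation were described in whole-genome bisulfite data from mouse liver. They were chosen by their mean methylation over all libraries, as runs of at least 4 adjoining 1 kb windows, each with 10 or more listed cytosines and a mean below 15% over the 8 libraries. The search covered chromosomes 1 to 4, chromosome 5 as far as the table was read, and chromosomes 10 to 19. It found 2030 runs with 13753 windows, out of 1272876 windows with 10 or more positions, of which 43853 were below the ceiling. Because levels chose the runs, the low level of a run is a description and no result. The contrast between the 2 groups of libraries was not used in the choice.

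All libraries came from livers of male C57BL/6J mice, an inbred strain, of genotype WT, which were 8 weeks old when purchased. The mice then received for 28 weeks either a normal diet (ND) or a diet rich in fat, cholesterol and fructose (HFHC), which is used to bring on nonalcoholic steatohepatitis (NASH), a fatty and inflamed liver. Titles name 4 libraries NASH and 4 libraries WT, and the columns of the table carry NASH and ND, with ND taken as the WT titles because no other group was left. The treatment field is crossed against the titles, so if that field is right, every direction given here turns round. Nothing in the labels ties each library to a mouse of its own, so p-values measure the spread between libraries, which may be technical. The table holds percentages without read depth.

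Most CpG sites of a mammalian genome are methylated, and CpG islands at gene starts are usually kept free of methylation. At many genes for developmental transcription factors, the unmethylated stretch reaches far beyond the island. Such stretches are called methylation valleys or canyons. They are often covered by Polycomb repressive marks in tissues where the gene is silent, and by active marks where it is expressed. Their borders are known as places where methylation is intermediate and can shift.

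The label of a broad unmethylated valley is kept below for a minority of the runs only. In 581 of the 2030 runs (28.6%) the values above 0 were themselves mostly low, with a median under 50%, and these runs are called graded below. In another 1236 runs (60.9%) the values above 0 had a median of 50% or more, and in 213 runs (10.5%) every value in every library was 0. The median of the values above 0 fell under 35% in 576 runs and was exactly 100% in 1203 runs, and 17 runs lay between 45% and 55%, so the limit of 50% divided few borderline cases. Graded runs held a median of 90.9 listed positions per kb, against 21.0 in the other runs. Of the graded runs off chromosome 18 (no start sites of that chromosome were used), 60.4% held an annotated gene start, against 9.0% of the other runs. A median of 86.9% of positions in the other runs was listed at 0 in all 8 libraries, against 48.3% in graded runs. An exact 0 can stand for a cytosine without reads in this table, and whether it does so in these runs was not tested.

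**Figure D1:**
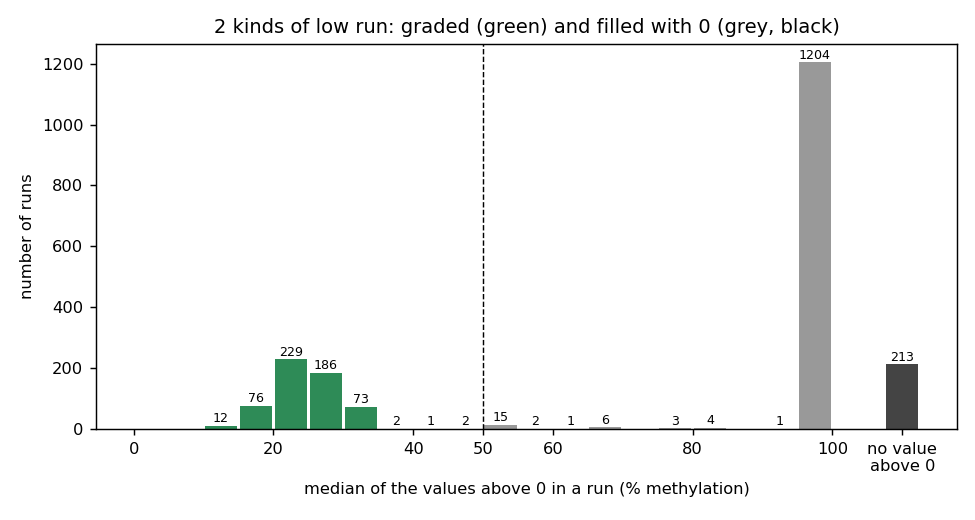
Number of runs (y axis) by the median of their values above 0 (x axis, % methylation, in steps of 5), with runs that hold no value above 0 at the far right; the dashed line marks the limit of 50%. The graded runs in green gather between 10% and 35%, and 1204 runs in grey lie at 95% to 100%.

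The runs that are not graded are called filled with 0 below, and the 12 longest runs all belonged to them. The longest had 101 windows on chromosome 19, over Cabp2, Cabp4, Coro1b and other genes, with 99.7% of its 3534 positions at 0 in every library. The next had 95 windows over Rtl1, a retrotransposon-derived imprinted gene, and 74 windows over Nrxn2, a synaptic adhesion gene. Others covered Mrps23, Nek2, Cdc42bpg with Ehd1, Ide, Ccdc182, Fzd6, Pdpn, and Pygm with Rasgrp2 and another stretch of Nrxn2, and 1 run of 74 windows overlapped no gene. These genes are therefore listed at 0 and are not described as valleys. The separation into graded and other runs was made after the values were seen, so counts over graded runs carry no test. The mean over all run windows is given beside them.

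Letters of some gene starts in the graded runs follow, which are a small part of each run. The 250 bases before a start are given 5′ to 3′ as the gene reads, from RefSeq (GRCm38.p6), with each CpG in capitals. They were picked as the longest graded run with an entry and as runs that the group comparison below turns on. A start of Rxra outside any low window is set beside the one inside for contrast. The intervals are chr2:105668646-105668895 for Pax6 (plus strand), chr16:23988853-23989102 and chr16:23981284-23981533 for Bcl6 (minus strand), chr2:27676951-27677200 and chr2:27709042-27709291 for Rxra (plus strand), chr4:95052223-95052472 for Jun (minus strand), chr13:52981040-52981289 for Nfil3 (minus strand) and chr12:101083703-101083952 for Ppp4r3a (minus strand).
Pax6: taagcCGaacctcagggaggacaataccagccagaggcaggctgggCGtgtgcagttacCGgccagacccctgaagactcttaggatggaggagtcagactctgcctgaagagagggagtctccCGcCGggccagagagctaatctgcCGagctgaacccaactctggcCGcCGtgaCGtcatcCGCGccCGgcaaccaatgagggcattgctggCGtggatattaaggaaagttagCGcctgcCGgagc
Bcl6, start at 23988852: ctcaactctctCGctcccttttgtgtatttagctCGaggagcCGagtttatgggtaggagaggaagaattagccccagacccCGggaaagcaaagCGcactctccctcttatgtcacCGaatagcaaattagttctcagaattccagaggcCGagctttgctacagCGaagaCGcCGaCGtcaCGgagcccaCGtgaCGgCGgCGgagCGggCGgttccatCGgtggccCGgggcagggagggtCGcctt
Bcl6, start at 23981283: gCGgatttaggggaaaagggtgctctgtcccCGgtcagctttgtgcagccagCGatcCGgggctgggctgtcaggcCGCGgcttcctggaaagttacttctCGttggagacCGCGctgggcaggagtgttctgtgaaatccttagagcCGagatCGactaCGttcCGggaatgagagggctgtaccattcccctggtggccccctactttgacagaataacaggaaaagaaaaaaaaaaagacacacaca
Rxra, start at 27677201: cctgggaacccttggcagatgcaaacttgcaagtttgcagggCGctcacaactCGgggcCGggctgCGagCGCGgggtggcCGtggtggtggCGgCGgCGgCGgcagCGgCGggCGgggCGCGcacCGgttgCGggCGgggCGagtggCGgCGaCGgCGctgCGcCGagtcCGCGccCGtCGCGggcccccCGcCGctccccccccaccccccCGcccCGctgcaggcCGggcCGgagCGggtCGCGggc
Rxra, start at 27709292: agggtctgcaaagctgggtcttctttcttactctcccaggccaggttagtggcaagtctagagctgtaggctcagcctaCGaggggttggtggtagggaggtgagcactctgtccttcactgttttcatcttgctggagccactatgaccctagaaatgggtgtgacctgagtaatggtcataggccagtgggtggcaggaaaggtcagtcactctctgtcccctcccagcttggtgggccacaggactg
Jun: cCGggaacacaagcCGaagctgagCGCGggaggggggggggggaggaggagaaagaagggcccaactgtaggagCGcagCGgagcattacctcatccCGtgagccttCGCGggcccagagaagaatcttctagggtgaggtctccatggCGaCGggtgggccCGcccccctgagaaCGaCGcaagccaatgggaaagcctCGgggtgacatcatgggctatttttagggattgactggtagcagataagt
Nfil3: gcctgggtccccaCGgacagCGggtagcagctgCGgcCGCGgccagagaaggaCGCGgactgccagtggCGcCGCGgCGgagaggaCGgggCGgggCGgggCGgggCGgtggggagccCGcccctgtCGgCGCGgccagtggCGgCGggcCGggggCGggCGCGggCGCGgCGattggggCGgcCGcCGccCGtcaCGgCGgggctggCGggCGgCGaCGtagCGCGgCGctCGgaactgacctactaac
Ppp4r3a: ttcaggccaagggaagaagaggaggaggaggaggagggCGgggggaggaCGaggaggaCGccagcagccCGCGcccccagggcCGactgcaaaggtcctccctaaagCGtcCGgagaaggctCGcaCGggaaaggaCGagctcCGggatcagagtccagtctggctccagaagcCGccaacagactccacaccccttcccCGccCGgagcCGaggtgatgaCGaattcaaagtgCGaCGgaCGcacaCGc

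These letters differ widely in CpG content. Nfil3 held 43 CpGs in its 250 bases, the Rxra start at 27677201 held 40, and Ppp4r3a and the Bcl6 start at 23988852 held 21 each. Pax6 and Jun held 15 each and the Bcl6 start at 23981283 held 13. The Rxra start at 27709292 held 1, and its 1 kb window averaged 64.0% over the libraries, against 2.29% for the window of the other start. Over the 300 bases kept per start, 453 starts in graded runs held a median of 22 CpGs. The median was 23 for 6964 starts in graded low stretches of 1 to 3 kb, and 14 for all 14312 starts. The median for starts in valleys was thus close to that for starts in shorter low stretches.

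Graded runs were mostly short, with a median of 4 windows, and 45 of the 581 had 10 windows or more. The longest lay over Pax6, the eye and forebrain regulator, with 25 windows at chr2:105665000-105689999. Runs of 21 windows covered Dlx1 with Dlx2, regulators of forebrain interneurons, and Hoxc10 with Hoxc11, posterior patterning genes. Pax3, a neural crest and muscle regulator, had 18 windows. Pou3f3, Lbx1 and Pax7 had 16 each, Foxf2 and Foxd1 had 15, and Tfap2b and En1 had 14. These genes encode developmental transcription factors that are not known as liver identity genes. Positions are given as the table lists them, which is 1 base above the GRCm38.p6 coordinate of the CpG letter.

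Of 9 gene lists, homeobox transcription factors overlapped graded runs most often, with 87 of 134 genes (64.9%). Other developmental transcription factors followed with 66 of 140 (47.1%), against 555 of all 14808 protein-coding genes (3.75%). Hepatocyte transcription factors and nuclear receptors reached 15 of 40 (37.5%), and immediate early and growth control genes 22 of 64 (34.4%). Developmental signalling genes had 20 of 93 (21.5%), Polycomb, trithorax and DNA methylation enzymes 4 of 39 (10.3%), and neuronal channels, receptors and synaptic genes 8 of 113 (7.08%). Markers of other liver cells had 1 of 30 (3.33%). None of 53 genes for hepatocyte products and metabolism, such as albumin and the cytochromes, overlapped a graded run of 4 kb, and 17 of them overlapped a shorter graded stretch. Homeobox genes also had the longer runs, with a median of 8 windows and 26 runs of 10 or more, against a median of 5 for hepatocyte factors and 5 for immediate early genes. Gene length and CpG content differ between these lists, and their part in the shares was not tested.

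**Figure D2:**
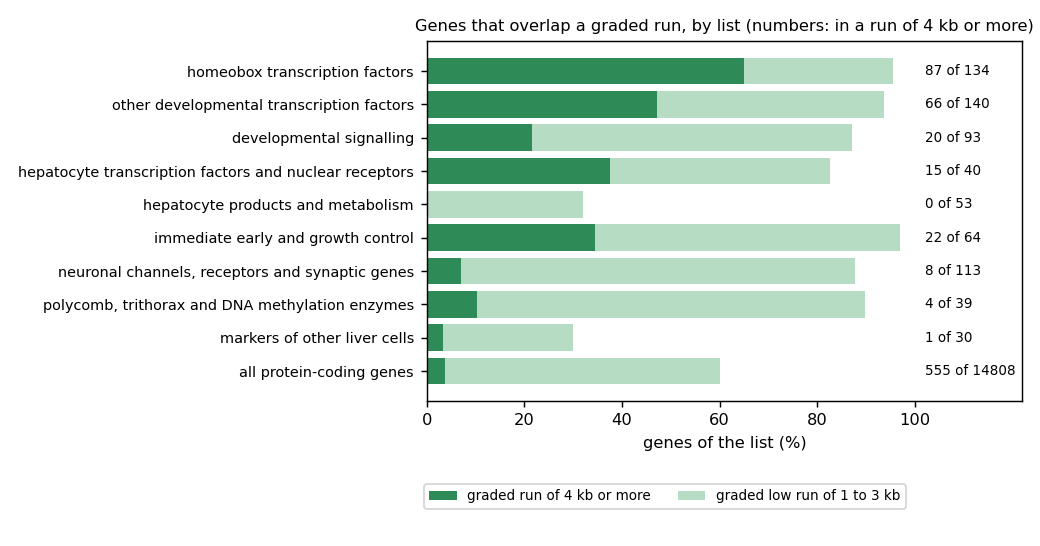
Share of the genes of each list (x axis, %) that overlap a graded run of 4 kb or more (dark green) or a graded low stretch of 1 to 3 kb (light green), with the number in a run of 4 kb or more beside each bar. Homeobox genes reach 64.9% in the longer class and all protein-coding genes 3.75%.

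The liver's own regulators were among the members. Graded runs lay over Foxa1 and Foxa2, pioneer factors of endoderm, Gata4 and Gata6, Onecut2, Prox1, Nr5a2, a regulator of bile acid genes, Nr3c1, the glucocorticoid receptor, Rxra, the shared partner of many nuclear receptors, Bcl6, a repressor of lipid genes, Ppargc1a, Cebpd, Nr2f1 and Zhx2, among others. The median level over the 15 runs of this list was 4.45%, against 6.82% over the runs of homeobox genes and 3.47% over those of immediate early genes. Bcl6 had the longest of these 15 runs, with 10 windows.

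Levels within graded runs were higher in longer runs, and levels just outside were lower. Runs of 4 windows averaged 5.29% ± 0.137 (SD, n = 4) in the NASH libraries and 4.93% ± 0.220 (SD, n = 4) in ND. Runs of 10 or more windows averaged 7.23% ± 0.214 and 6.70% ± 0.326 (SD, n = 4 each). The first 1 kb window outside a run, called its edge, averaged 47.9% ± 0.471 in NASH and 47.0% ± 0.364 in ND for runs of 4 windows. It averaged 31.5% ± 0.876 and 31.4% ± 0.446 for runs of 10 or more. Across a border, the ND mean went from 3.97% in the second window inside to 6.91% in the last window inside, 43.0% in the first outside, 55.1% in the second and 67.8% at 10 kb. The rule fixes the drop at the border itself, and the slow climb beyond 2 kb lies outside what it used.

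The question for the groups was whether the interiors and edges of the valleys differed between diets. In the graded run windows, the NASH libraries averaged 6.05%, 5.72%, 6.01% and 5.84%, and the ND libraries 5.27%, 5.30%, 5.56% and 5.80%. The groups overlapped at 1 pair, since ND library 4 lay above NASH library 2, and the means differed by 0.42 points. Restricted to the first and last window of each run, the NASH libraries averaged 7.60%, 7.24%, 7.59% and 7.48%, and the ND libraries 6.68%, 6.75%, 7.04% and 7.18%. Here every NASH library lay above every ND library. The 1026 edge windows of graded runs averaged 44.3%, 43.3%, 44.3% and 43.8% in NASH and 42.9%, 42.6%, 43.3% and 43.1% in ND. The NASH libraries again lay above all ND libraries, by 0.97 points, though NASH library 2 and ND library 3 were nearly level. The second window outside was without overlap as well, by 0.83 points. Graded edges with a mean of 15% to under 60% had a median difference of 0.81 points. Windows anywhere at those levels had a larger one, 1.82 points, so the gain was not particular to valley edges. Edges on the upstream side of the gene averaged 47.4% ± 0.354 in NASH and 46.3% ± 0.349 in ND (SD, n = 4 each) without overlap. Edges on the gene body side averaged 42.4% ± 0.597 and 41.6% ± 0.0936 and overlapped, and the difference between the sides was not tested.

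**Figure D3:**
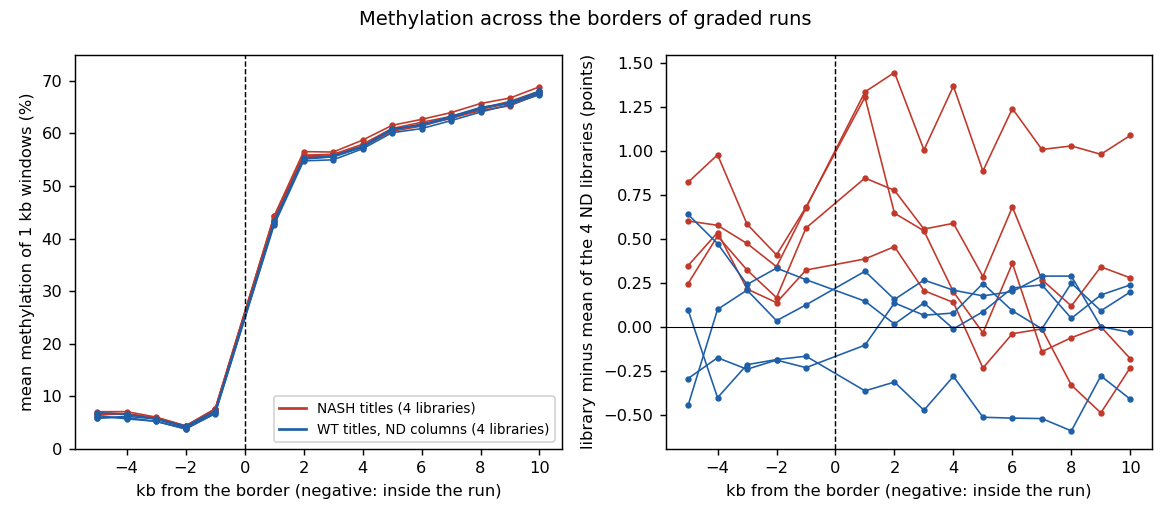
Mean methylation of 1 kb windows by distance from the border of graded runs (x axis, kb; negative values are inside), as a level for each library (left, %) and as the difference from the mean of the 4 ND libraries (right, percentage points); red lines are NASH titles and blue lines WT titles. The difference between the group means is 0.97 points in the first window outside and 0.24 points at 10 kb.

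Over all 13753 run windows, graded or not, the groups averaged 2.87% ± 0.0728 in NASH and 2.90% ± 0.0801 in ND (SD, n = 4 each) and overlapped. Over all 2698 edge windows both averaged 43.7%, with SDs of 0.404 and 0.436 (n = 4 each). In the 10535 windows of the other runs the NASH libraries lay below all ND libraries, with 1.94% ± 0.0858 against 2.11% ± 0.0543 (SD, n = 4 each). The higher NASH level was thus found for graded runs and not for the runs as the rule gives them. Over all windows read, NASH averaged 76.2% ± 0.651 and ND 76.7% ± 0.576 (SD, n = 4 each), with overlap.

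The mean share of zeros differed between the groups as well. In graded run windows, 84.0% ± 1.01 of positions in NASH and 85.0% ± 0.217 in ND were listed at 0 (SD, n = 4 each), with overlap. In graded edges the shares were 26.2% ± 1.69 and 28.7% ± 0.811 (SD, n = 4 each), also with overlap. Over all windows they were 13.6% ± 0.312 and 14.1% ± 0.192 (SD, n = 4 each), again with overlap. The lower mean share in NASH was thus not particular to graded runs. Positions above 0 averaged 27.8% ± 1.41 in NASH and 28.5% ± 2.21 in ND within graded runs, opposite to the difference in level and with overlap. Over all windows they averaged 82.2% ± 0.698 and 83.1% ± 0.572 (SD, n = 4 each), with overlap as well. With every zero left out of the window means, the group difference turned to -0.38 points in run windows and -0.21 points in edges. With only doubtful zeros left out (a 0 among neighbours with a median of 50% or more), it stayed at 0.42 and 0.84 points. True zeros and positions without reads cannot be told apart in a table without depth.

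Single windows and runs were tested with limma over the whole table, with Benjamini-Hochberg adjustment. Of all windows, 6 of 1272876 (0.000471%) passed an adjusted p of 0.05, among them 2 run windows and 0 of 2698 edges. Of 21654 low runs of any length 0 were called (0%), and 1520 (7.02%) had an unadjusted p under 0.05, of which 109 were among the 2030 runs. Of the graded runs it was 52, and 35 in the fit without runs of no variance, against 6.81% of such low runs of any length. Of the edges, 389 of 2698 had an unadjusted p under 0.05 in the same limma fit, against 11.7% of all windows. That share was not computed for windows at the levels of edges. Both called run windows lay in runs filled with 0. One, at Gm6710, a predicted gene on chromosome 2, was listed at 0% in the 4 NASH libraries and at 10.0% in the 4 ND libraries, over 10 positions (limma adjusted p = 0.00072). Its values did not vary within either group, so this p rests on the prior variance of the fit and on no observed spread. The other, in no gene at chr14:116789000-116789999, was listed at 0% in NASH and at 10.5%, 13.2%, 10.5% and 10.5% in ND (limma adjusted p = 0.017).

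Some windows did not vary between libraries at all, and the fit as designed included them. Its prior variance for graded run windows had a median of 0.751, against a median observed variance of 2.96, and of 7.81 with those windows left out. Without such windows, a choice made after the data were seen, 288 of 1263237 windows were called (0.0228%), among them 1 run window (that on chromosome 14) and 1 edge. In that fit 207 of the 1026 graded edges had an unadjusted p under 0.05, against 11.4% of all windows. All windows averaged 76.2% in NASH and 76.7% in ND, far above edges. The share among windows at the levels of edges was not computed. The called edge lay just upstream of Ppp4r3a, a regulatory subunit of protein phosphatase 4, at chr12:101085000-101085999. Its NASH libraries were at 47.8%, 45.4%, 51.3% and 56.0% and its ND libraries at 26.1%, 19.8%, 16.7% and 26.4%, over 20 positions. The groups lay far apart, with a difference of 27.9 points (SE 3.45, limma adjusted p = 0.0461; 0.0625 in the fit as designed). The run beside it was at 6.09%, 5.03%, 6.30% and 7.16% in NASH and 3.22%, 3.59%, 6.91% and 3.69% in ND, with overlap. The call was lost when any 1 library was left out and on logit levels. With doubtful zeros left out, 2 edges were called, against 684 of 1263237 windows.

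Groups without overlap were counted as a description. Of 1049 edges of graded runs (23 windows serve as the edge of 2 runs), 84 (8.01%) had every NASH library above every ND library and 47 (4.48%) had every NASH library below. Over all windows the shares were 3.05% above and 3.93% below. Among windows anywhere with a mean of 15% to 60%, they were 13.1% and 2.77%. Edges of shorter graded stretches had 7.49% and 4.99%. Restricted to the same levels, 73 of 782 edges (9.34%) were above and 30 (3.84%) below, and the difference from those windows was not tested. With every zero left out, 50 edges were entirely above and 55 entirely below. Of the 581 graded runs themselves, 44 (7.57%) were entirely above and 4 (0.688%) entirely below. Over low runs of any length, which include those filled with 0, the shares were 2.86% and 1.81%. Among graded low runs of 1 to 3 windows they were 4.95% and 2.54%. With every zero left out, the 2 counts for the 581 graded runs became 6 and 9. Differences of graded runs were from -2.83 to 6.58 points, with a median size of 0.691 points against a median SD within groups of 0.934 points.

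Nuclear receptor genes and Bcl6 are given next, picked after their values were seen. Upstream of Rxra, NASH was at 38.1%, 52.7%, 36.0% and 28.5% and ND at 20.6%, 22.3%, 9.49% and 17.9%. The NASH libraries were all higher, by 21.2 points. The run at Rxra had the largest difference of all graded runs, with 12%, 6.56%, 7.71% and 13.4% in NASH against 2.73%, 3.77%, 3.87% and 2.99% in ND. Its window with the smallest p, at 27678000 and next to the CpG-rich start printed above, was apart too. There ND was listed at 0% in 3 of 4 libraries (0.769% in the other) and NASH at 6.72%, 8.10%, 4.17% and 10.8%. The window that holds this start, at 27677000, overlapped, with 0.833%, 0.645%, 1.14% and 6.44% in NASH and 0.753%, 0%, 8.39% and 0.108% in ND. The run difference did not pass the run fit. Both edges of Bcl6 were higher in NASH. On the upstream side they read 38.3%, 43.6%, 28.2% and 37.9% against 19.8%, 27.2%, 20.2% and 12%, and on the gene body side 34.3%, 29.2%, 27.8% and 40.1% against 22.2%, 21.6%, 18.4% and 20.9%. The window inside the Bcl6 run at 23983000 was also apart, with 7.33% ± 1.26 in NASH and 3.15% ± 0.541 in ND (SD, n = 4 each). An edge of Nr3c1 stood at 24.5% ± 4.09 and 9.30% ± 3.78 (SD, n = 4 each), and the upstream edge of Rara, the retinoic acid receptor alpha, at 52.7% ± 4.75 and 34.4% ± 4.35 (SD, n = 4 each).

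Further edges were higher in all NASH libraries at Myh9, nonmuscle myosin, by 26.7 points, at Tle1, a Groucho corepressor, by 23.6 and 9.54 points on its 2 sides, and at Zbtb7b by 22.0 points. Nfil3, a circadian and immune transcription factor, read 53.0%, 58.1%, 49.1% and 57% in NASH and 32.3%, 28.0%, 32.7% and 40.2% in ND. Pim1, a serine/threonine kinase, differed by 19.9 points, Ifrd1 by 20.2 points and Man2a1, a Golgi mannosidase, by 17.3 points. Nfib, a nuclear factor I gene, had both edges higher, by 8.39 and 15.9 points. The run of its relative Nfia read 4.76%, 5.46%, 5.76% and 5.90% in NASH against 2.44%, 2.33%, 1.94% and 2.41% in ND, without overlap. Other runs entirely higher lay at Cpeb4, an RNA-binding translational regulator, by 5.83 points, at Klf3 by 4.87 points, at Id3 by 4.06 points, at Il6st, the shared receptor subunit of interleukin 6 cytokines, by 3.82 points, and at Prox1 by 1.64 points. Of these, no run or edge passed the adjusted limma test in either fit.

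Edges that were lower in all NASH libraries included immediate early and growth control genes. Both edges of Jun, a subunit of the AP-1 factor, were lower, with 29.1%, 21.8%, 34.6% and 27.5% in NASH against 42.3%, 36.8%, 41.0% and 43.9% in ND in the gene body. Upstream, the values were 38.6%, 40.4%, 42.4% and 35.6% against 52.8%, 49.4%, 51.2% and 49.0%. The edge of Klf10, a TGF-beta-inducible factor, read 9.62%, 8.05%, 10.8% and 6.08% in NASH and 21.2%, 22.8%, 23.5% and 19% in ND, the smallest adjusted p in its list (limma, 0.0622). Mycn, Spry2, Dusp6, a MAP kinase phosphatase, and Gadd45g each had 1 such edge, by -14.5, -9.47, -6.59 and -6.56 points. In that list 7 of 43 edges were entirely lower (16.3%) and 3 entirely higher, at Nfil3, Trib1 and Sik1, against 4.48% and 8.01% of all graded edges. No edge of the list passed the adjusted test, and the list's median edge difference was -1.19 points against 0.43 points over all graded edges. Outside the list, Bmpr2, a BMP receptor, was lower by 21.4 points on its gene body edge (44.6% ± 2.30 against 65.9% ± 5.90; SD, n = 4 each). Actg1, Ptbp1, Meis2 and Barhl2 were at -17.8, -15.7, -14.0 and -11.7 points.

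**Figure D4:**
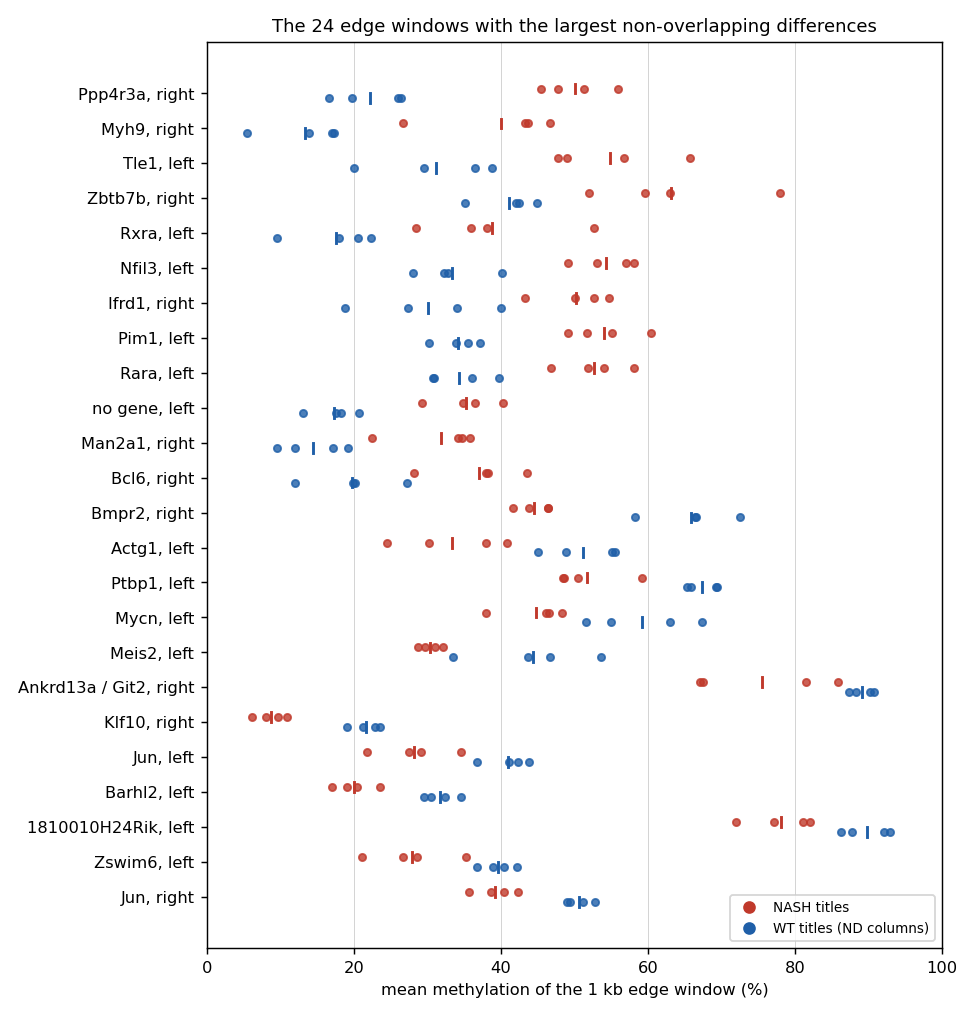
Mean methylation (x axis, %) of the 24 edge windows with the largest differences whose groups do not overlap, 12 in each direction; each dot is a library, vertical ticks are group means, and left and right give the lower- and higher-coordinate side of the run. Ppp4r3a stands at 50.1% in NASH and 22.2% in ND, and Klf10 at 8.64% and 21.6%.

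The other lists are set beside all graded edges, with 8.01% entirely higher and 4.48% entirely lower, and beside windows of 15% to 60% anywhere, with 13.1% and 2.77%. Hepatocyte factors had 4 of 27 edges entirely higher (14.8%; both of Bcl6, and those of Rxra and Nr3c1) and 1 entirely lower (3.70%, Gata6, by -7.63 points). Of these 27 edges 13 had the higher mean in NASH. Their median difference was -0.145 points, against 0.43 points over all graded edges. Homeobox genes had 8 of 140 edges entirely higher (5.71%) and 3 entirely lower (2.14%), at Pax2, Meis2 and Barhl2. Other developmental factors had 7 of 125 higher (5.60%) and 3 lower (2.40%). Among the higher was Gfi1, a zinc finger repressor, with 20.4%, 22.7%, 20.3% and 24.7% in NASH against 10.9%, 4.69%, 13.4% and 5.38% in ND over 178 positions. Signalling genes had 0 of 35 in either direction. The smallest limma adjusted p in each list, in the fit as designed, was 0.0873 for homeobox genes (edge of Barhl2), 0.0745 for other developmental factors (a run window of Id3, 7.84% ± 0.509 against 4.59% ± 0.169; SD, n = 4 each), 0.0911 for hepatocyte factors (edge of Nr3c1) and 0.131 for signalling (a run window of Inhbb). For neuronal genes it was 0.166 (Gfra1), and for Polycomb and related enzymes 0.165 (Kmt2c).

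In the 45 valleys of 10 or more windows the group differences were from -1.12 to 2.25 points, some with and some without overlap. Pax6 read 6.84%, 6.36%, 7.58% and 6.73% in NASH and 5.91%, 6.93%, 6.89% and 7.03% in ND, with overlap. Dlx1 with Dlx2 read 7.09%, 7.76%, 7.61% and 6.78% in NASH and 7.19%, 7.99%, 7.44% and 8.03% in ND, also with overlap. Foxf2, a forkhead gene of mesenchyme, read 8.19%, 7.90%, 7.52% and 7.19% in NASH and 6.58%, 6.07%, 6.19% and 6.39% in ND, without overlap. En1 was apart as well, at 5.96% ± 0.504 and 4.61% ± 0.210 (SD, n = 4 each), as were Pax3, Tfap2b, Bcl6 and a run over the predicted genes Gm21188 and Gm36079. In all, 7 of the 45 runs of 10 or more windows had all NASH libraries above (15.6%), 0 had all below, and 36 of the 45 had the higher mean in NASH, against 7.57%, 0.688% and 64.9% of all graded runs. Of their 77 edges 2 were entirely higher and 2 entirely lower (2.60% each), against 8.01% and 4.48% of all graded edges. Runs entirely lower in NASH were Hoxc13 by -2.60 points, Nkx1-1 by -1.23, Sfmbt2 by -1.15 and Nr4a2 by -0.53.

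**Figure D5:**
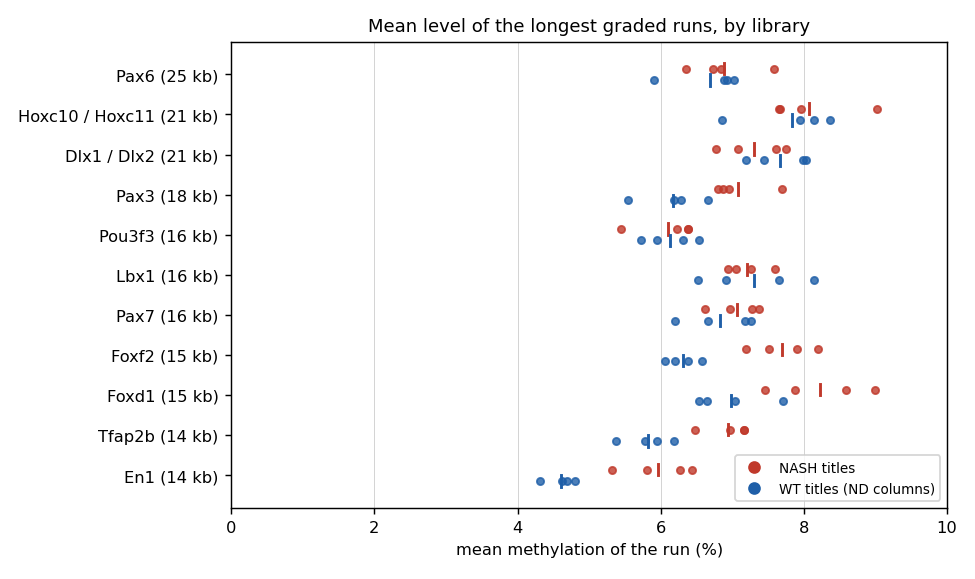
Mean methylation (x axis, %) of the longest graded runs in each library, with their lengths in kb; dots are libraries and vertical ticks group means. All lie between 4% and 10%, and the groups overlap at Pax6, the Hoxc10 and Hoxc11 run, Dlx1 and Dlx2, Pou3f3, Lbx1, Pax7 and Foxd1.

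The tissue itself differed between the groups at marker genes. Within 500 bases of their starts, 6 hepatocyte markers with values averaged 37.0% to 39.3% in the NASH libraries and 21.8% to 29.7% in ND, and all 6 had the higher mean in NASH. For 4 macrophage markers the averages were 53.7% to 57.8% in NASH and 59.3% to 66.6% in ND, with 3 of 4 lower in NASH. For 4 neutrophil markers they were 56.7% to 66.1% and 66.0% to 71.4%, with overlap, since NASH library 2 lay above ND library 4. All 4 had the lower mean in NASH, but Cxcr2 was nearly level, at -0.04 points. Ptprc, the 1 lymphocyte marker with a value, stood at 52.7% to 67.8% and 73.0% to 79.4%. Endothelial (2 genes) and cholangiocyte (2 genes) averages overlapped, and those of 4 stellate cell markers were 32.7% to 37.5% and 36.6% to 42.1%, also with overlap. The part of these marker differences in the edge differences was not tested. In bulk tissue a change of methylation within a cell type and a change in the mix of cell types cannot be told apart.

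At the ceiling of the rule, the last runs included were at chr11:102945000, at chr18:9211000 and over Selenop, the hepatic selenium carrier, which needed ceilings of 14.95%, 14.96% and 14.98%. The first left out, on chromosomes 10, 14 and 4, needed a ceiling above 15%. The gene body edge of the Selenop run averaged 31.6% ± 7.51 in NASH and 15.8% ± 4.94 in ND (SD, n = 4 each).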

How the data were processed

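Whole-genome bisulfite libraries were compared as 4 titled NASH and 4 titled WT (ND columns). The authors deposited percent methylation per cytosine of a CpG, each strand on its own row; this table carries no read counts, so the depth per sample is unknown and no interval could be computed from it. Per the submitters' processing notes, FastQC and the build mm10 were used; for the aligner and the methylation caller, names were not given in the sources used here. Here 30729300 positions on 15 chromosomes were averaged in 1 kb windows per library; 326824 positions on 85 contigs and 1 incomplete line were left out, and the chromosomes outside the search were not used here. Zeros made up 12.3% to 13.1% of values per library.

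Window and run levels were tested with limma 3.58.1 (R 4.3.3; mean-dependent prior variance, Benjamini-Hochberg over all windows or all low runs, threshold 0.05). On simulated windows the fit called 19 of 50 changes of 10 points, 47 of 50 of 20 points and 50 of 50 of 30 points. The simulation used normal noise with 1 SD per class of level, no windows of no variance, and far fewer windows than the table. Its counts therefore do not give the share of real changes that the fit would call. In the fit as designed, the Ppp4r3a edge with a difference of 27.9 points was not called (limma adjusted p = 0.0625). Means over many windows carry no test. Genes came from RefSeq (GRCm38.p6), start sites without chromosome 18. The members and lists were chosen with earlier results of these data known. Named were genes of the 12 longest runs, called windows, up to 4 genes per list with the smallest p, runs at the ceiling, and, after the values were seen, the 12 longest graded runs, the 12 largest non-overlapping edges and runs in each direction, edges and runs of listed genes without overlap, and both-sided edges. The alternatives left out each library, doubtful zeros or every zero, changed the ceiling, the positions per window and the run length, and changed the model. A few genes that meet these rules are not reported here.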

Additional observations from a re-analysis of the deposited data

Results flagged for a closer look

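In 114 groups of 4 libraries, taken from the named edges, the named and longest runs and the mean levels, 7 values stood apart from the other libraries of their group by a gap above the 95% critical value of Dixon's test, which chance gives in about 1 of 20 groups. The lowest NASH library was far from the others at the Man2a1 edge (22.5%), the Myh9 edge (26.7%), the Nr4a2 run (0.924%) and the Pou3f3 run (5.45%). The lowest ND library was far from the others at the Pax6 run (5.91%). At the Klf3 run both the highest NASH library (11.5%) and the lowest ND library (0.134%) stood apart.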

How the results depend on the processing

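The depth is unknown and limits every value. The rule's number of runs, 2030, became 965 with 20 positions per window, 653 for runs of 6 or more windows and 581 for graded runs alone. The 2 called run windows became 1 with a 10% ceiling, with 20 positions or without windows of no variance, and 0 with every zero left out, for runs of 6 or more windows or for graded runs with or without windows of no variance. Leaving out 1 library gave 1 to 8 called run windows, 0 called edges, and 0 to 2 called runs. Over all 1272876 windows it called 4 to 24, and of 21654 low runs of any length 0 to 9. The replicate numbers did not pair the libraries (correlations of same-numbered deviations -0.00444, 0.0036, 0.0155 and -0.00176), and a fit with the replicate block called 0 run windows, 0 edges and 0 runs, also without windows of no variance for graded runs, where the Ppp4r3a edge was lost. Edges called were 5 of 2577 with every zero left out (608 of 1248147 windows) and 2 of 783 with 20 positions (97 of 552647 windows). They were 3 of 2698 with 1 prior variance (1219 of 1272876 windows). Without windows of no variance 1 edge was called (288 of 1263237 windows), for all runs and for graded runs alike. Logit levels called 1 run, and 5 of 21654 low runs of any length. The group difference over all run windows was -0.03 points; it was -0.46 with every zero left out, 0.17 with 20 positions and 0.42 for graded runs, and between -0.06 and -0.01 with 1 library left out. That over all edges was 0.97 for graded runs, and between -0.17 and 0.14 with 1 library left out. Over graded runs alone, leaving out 1 library gave 0.35 to 0.53 points in runs and 0.85 to 1.17 in edges, and leaving out every zero gave -0.38 and -0.21. Graded edges were then 50 entirely higher and 55 entirely lower in place of 84 and 47, and graded runs 6 higher and 9 lower in place of 44 and 4. All 24 named edges kept their direction with each library or every zero left out, and 21 kept groups without overlap with every zero left out. Graded runs were not chosen again under other ceilings or position limits.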
